A study of Caenorhabditis elegans with 10 samples.

Results

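Of the 10308 autosomal peaks of accessible chromatin called in larval stage 3 (L3) Caenorhabditis elegans, 1692 were regions that the early embryo list also held and the young adult list did not. They were chosen by position alone. An L3 peak on chromosomes I to V was taken when its overlap with an early embryo peak covered at least 0.5 of either peak (its counterpart), and when no young adult peak overlapped it to that extent. By this rule 7904 autosomal L3 peaks had an early embryo counterpart. Of these, 21.4% lacked a young adult counterpart, and the other 6212 were present in all 3 stages and serve below as the peaks to compare with. The same absence was found at 26.8% of all autosomal L3 peaks, at 44.7% of those with no early embryo counterpart, and at 58.2% of autosomal early embryo peaks. The rule fixes this count, so it is a description and was not tested. A region without a young adult counterpart did not pass the calling and filtering steps as a peak in that stage, which is not the same as a measured loss of accessibility.

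Accessibility was measured by ATAC-seq, in which a transposase cuts open chromatin and inserts sequencing adapters into it. Nuclei came from whole animals of the wild-type strain N2 with no added treatment, in 3 replicates per stage. Early embryos were released by bleach from egg-laying adults, L3 larvae were taken 36 h from the start of egg laying, and young adults at 57 h, when they held few or no eggs. All were grown at 20°C, and genomic DNA cut by the same transposase served as input control. The deposited peaks are 1 consensus list per stage, made from merged replicates, so no value below has a spread between replicates. Intervals are 95% intervals for counting error only. They treat regions as independent, which neighbouring regions are not, and no test was run. The early embryo was sequenced most deeply, L3 least and the young adult in between. The lists hold no reads, so the depth behind a single peak is unknown.

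Open regions of a compact genome such as this one are mostly promoters and enhancers, the stretches of DNA where transcription factors bind and nucleosomes are displaced. Between the embryo and the adult, dividing and differentiating somatic cells give way to terminally differentiated tissue, the larval molts end and the germ line comes to supply a large part of all nuclei. In nuclei of whole animals, a smaller share of cells in which a region is open and lower accessibility in each such cell cannot be told apart.

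A pair of the regions lay in DNA that the study cloned in front of a reporter to test for enhancer activity. They are shown here because they give members of the set a gene name and a sequence. The members were the L3 peaks chrII:574138-574430 and chrIII:9646331-9646662 (ce10). The study placed the first at the 3′ end of W08F4.7 and upstream of mlt-8, a gene named for the molting defect of worms that lack its function. It placed the second at the 3′ end of C15H7.3 and upstream of gei-13, named for an interaction with GEX-3, a regulator of the actin cytoskeleton needed for cell movements in the embryo. In the gene table of assembly WBcel235, W08F4.7 follows mlt-8 and C15H7.3 follows gei-13 along the chromosome. For both assignments, which are putative, the study named a hypodermal expression pattern as the reason, the hypodermis being the skin layer that makes the cuticle. In its reporter test both regions were scored as enhancers, with activity in hypodermis of the head or tail. The study added that earlier work had proposed both as promoters. The designed primers that amplified the regions with some flanking DNA are given 5′ to 3′. Only the part that anneals to worm DNA is shown, in capitals, without the vector tails.
mlt-8 region, forward primer, chromosome II: TTGTCTACGTACACTTCAAACTTAAAA
mlt-8 region, reverse primer, chromosome II: TCGTAAATCTTCAATGAAATAAGAAA
gei-13 region, forward primer, chromosome III: TCAAATGCCGTAGAAAAAGAAA
gei-13 region, reverse primer, chromosome III: TCCGCTTTGTGGACATACAA

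At mlt-8 the L3 peak was 293 bp wide with a fold enrichment of 3.20, the ratio of its summit to the local background in the same pooled library. It ranked 6083 of 13040 L3 peaks by fold. The early embryo peak inside it was narrower and weak, at 187 bp and a fold enrichment of 1.66, and ranked 24414 of 27694. Their summits lay 11 bp apart. No young adult peak came closer than 4269 bp, and the 3 young adult peaks of the window that the study's code draws around mlt-8 sat together on the side of higher coordinates. At gei-13 the L3 peak was 332 bp wide with a fold enrichment of 2.67, and the early embryo peak was 204 bp wide with a fold enrichment of 1.89. The summits were 2 bp apart and the nearest young adult peak was 2472 bp away. This region was the last of a run of 5 members, spread over 4.71 kb on chromosome III from 9641954 to 9646662, with no other L3 peak between them. A single young adult peak lay within the run, from 9643572 to 9643858, in a stretch where the early embryo list had peaks and the L3 list had none. At both genes the region stood higher in the L3 list than in the early embryo list as a percent of each list, unlike most members.

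**Figure D1:**
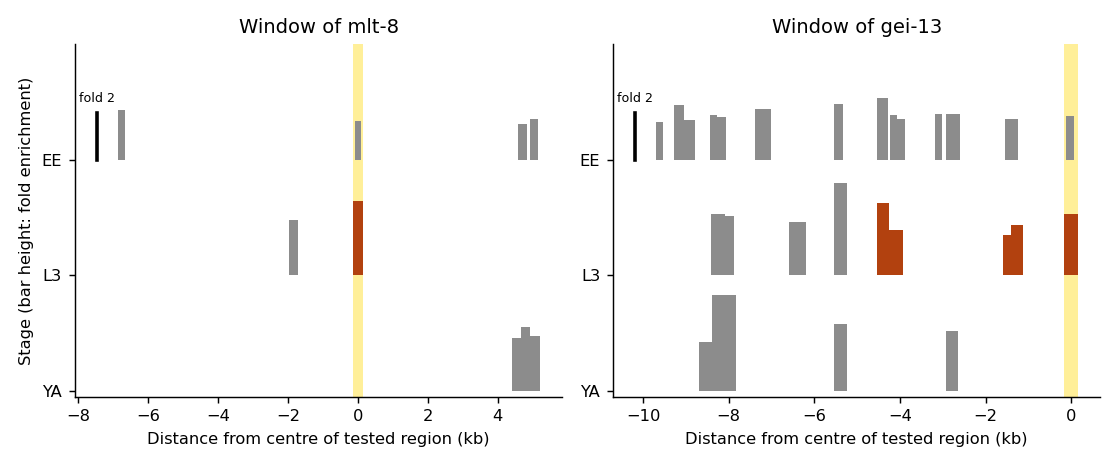
Peaks of the early embryo (EE), L3 and young adult (YA) lists in the windows around mlt-8 and gei-13, as distance in kb from the centre of the tested region (yellow band). Bar height is the fold enrichment within each list, with a scale bar of fold 2, and members are red. Each yellow band has the coordinates of the member L3 peak, without the cloned flanking DNA. By the rule it therefore holds a peak in EE and L3 and no YA counterpart. The gei-13 window holds 5 members, some of which directly adjoin.

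The study listed 23 autosomal regions for enhancer tests or as examples, of which 10 held an L3 peak and 3 a member. It chose such regions for changes in these same samples, so their presence here is no independent evidence. The third was at Y17D7C.1 on chromosome V. Its L3 peak, from 18706433 to 18706628, was 196 bp wide with a fold enrichment of 2.38. The early embryo peak there was stronger in rank, at 4517 of 27694 against 9789 of 13040 in L3, with summits 5 bp apart. A young adult peak was called 531 bp away. In the window drawn around kin-1, the gene for the catalytic subunit of the cAMP-dependent protein kinase, 3 of 14 L3 peaks were members, with L3 fold enrichments from 1.76 to 2.19. The windows of cav-1, a caveolin gene, and of C54G6.3 held none.

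The members were mostly weak peaks in L3. Their median L3 fold enrichment was 2.37 (95% interval 2.35 to 2.41), against 3.55 (3.48 to 3.63) for peaks present in all 3 stages. The range ran from 1.37 to 9.67, and 80% of them lay between 1.90 and 3.56. As a rank in the L3 list, where a low percent is a strong peak, the median member stood at 75.3% (73.7 to 76.6) and the median peak of all stages at 39.3% (37.9 to 40.4). Of the 1692 members, 320 (18.9%) were in the stronger 50% of the list and 3 in the top 10%. By contrast 59.7% of peaks of all stages were in the stronger 50%. At the other end, 857 members (50.7%, 48.2 to 53.1) were in the weakest 25% of the L3 list, where 18.9% of the peaks of all stages were. Most members were still well past the caller's q limit of 0.05 in L3. Their median −log10 q, the strength of evidence for a peak, was 18.6 (17.8 to 19.2), and 80% of them lay between 8.92 and 55.5.

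In the early embryo the same regions stood higher as a percent of the list, though not by fold. The median rank of the early embryo counterparts was 44.5% of that list (42.5 to 46.8), against 23.9% (23.1 to 24.8) at peaks of all stages, and the median fold enrichment was 2.17 against 2.68. Of the members, 1367 (80.8%, 78.8 to 82.6) had a better rank percent in the early embryo than in L3. For peaks of all stages this was 69.9% (68.7 to 71.0). The early embryo list is longer and came from more reads, so rank percents of both lists are not on a common scale. Counting both lists, 725 members (42.8%) were in the stronger 50% of early embryo peaks and the weaker 50% of L3 peaks. Another 647 (38.2%) were in the weaker 50% of both. At peaks of all stages these shares were 26.1% and 14.2%. Only 229 members (13.5%) were in the stronger 50% of both, against 51.3% of peaks of all stages. Strong in L3 and weak in the embryo were 91 members (5.38%), mlt-8 among them, against 8.35% of peaks of all stages. Across the 1692 regions the rank correlation of L3 and early embryo fold was 0.35, and across the 6212 peaks of all stages it was 0.52. The regions of a stage come from the same pooled libraries, and they are not replicates.

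**Figure D2:**
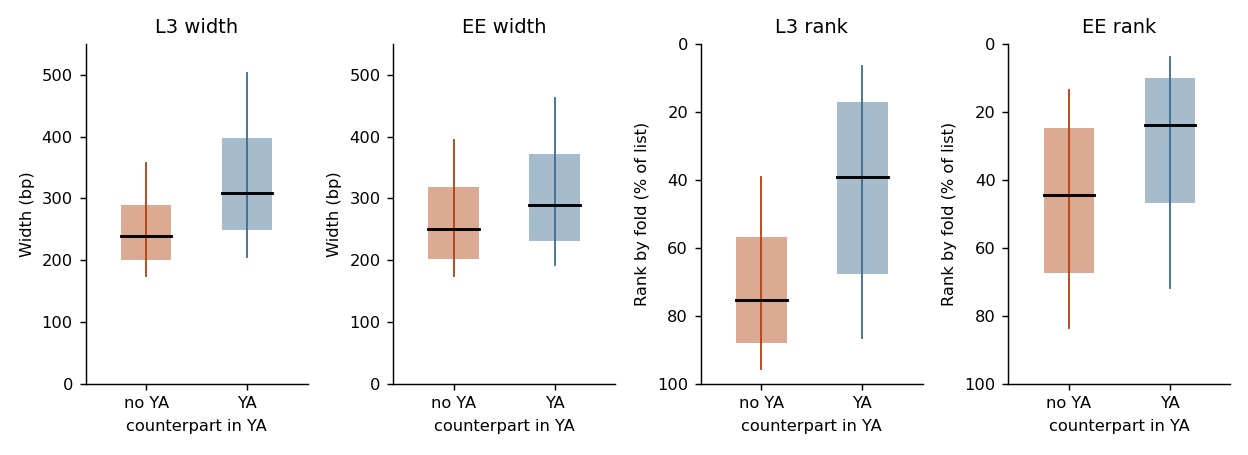
Widths (bp) and ranks by fold (percent of the list, strong peaks at the top) in L3 and the early embryo (EE) for the 1692 members (no YA counterpart) and the 6212 peaks of all 3 stages (YA). Black lines are medians, boxes hold the middle 50% and thin lines the middle 80% of regions. Members were narrower and ranked lower in both stages, with distributions that overlap widely.

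Along the whole range of L3 fold, the absence of a young adult counterpart was more common the weaker the L3 peak was. Among the 791 shared peaks with the lowest L3 fold (1.27 to 2.05), 352 (44.5%, 41.0 to 48.0) had no young adult counterpart. In the middle of the range, from 2.75 to 3.12, the share was 24.3% (21.4 to 27.5). In the highest 10%, with folds of 7.50 to 21.3, it was 2 of 791 (0.253%, 0.0306 to 0.910). The share fell at every step between these ends. Early embryo fold ordered the peaks less sharply. The lowest 10% by early embryo fold lacked a young adult counterpart at 35.3% (31.9 to 38.7) and the highest at 3.03% (1.95 to 4.48). Of 1917 shared peaks with an L3 fold of at least 5, 36 were members, and of 671 with an early embryo fold of at least 5, 18 were members.

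The young adult list reaches down to similar folds. Its autosomal peaks started at 1.28 and had a median of 2.74, against 1.27 and 3.05 in L3. Peaks of all stages that fell in the weakest 25% of the 7904 shared peaks by L3 fold had a median young adult fold of 2.42 (2.38 to 2.45), a median rank of 64.8% of the young adult list. Those in the strongest 25% had a median young adult fold of 6.33 and a rank of 8.88%. Weak L3 peaks that were found again were thus mostly in the weaker 50% of the adult list as well. How many members had young adult signal just under the caller's limit was not tested, because the lists hold no signal outside peaks.

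**Figure D3:**
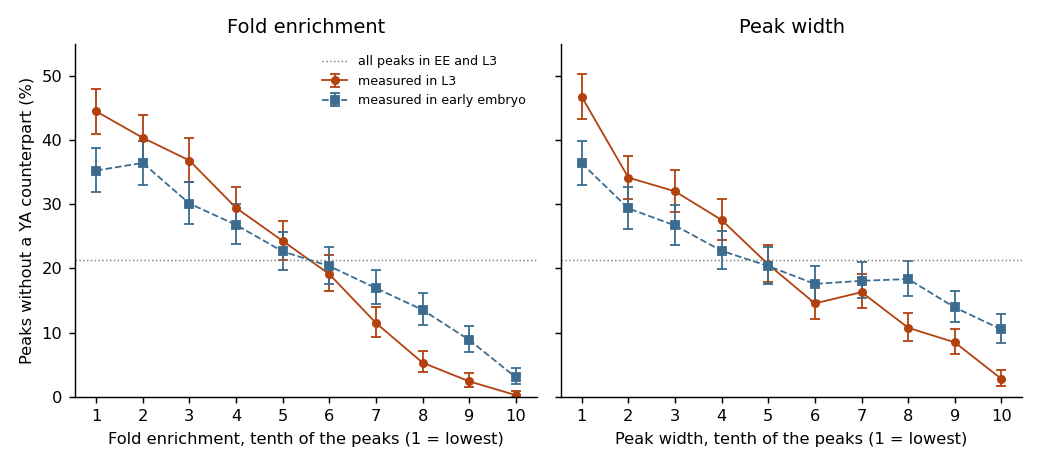
Share of autosomal L3 peaks with an early embryo counterpart that had no young adult (YA) counterpart (percent, with exact 95% intervals), in 10 equal groups of the 7904 peaks by fold enrichment (left) and width (right), measured in L3 or in the early embryo. The dotted line is 21.4%. The share fell from 44.5% to 0.253% with L3 fold and from 46.8% to 2.78% between the narrowest and the widest L3 peaks.

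Members were also narrow. The median L3 width was 240 bp (237 to 244) against 308 bp (305 to 311) at peaks of all stages, and the range was 125 to 753 bp. In the early embryo the medians were 250 bp (244 to 253) and 289.5 bp (286 to 292). The width difference between the classes was thus larger in L3 than in the embryo. The early embryo peak was the wider of the pair at 922 members (54.5%, 52.1 to 56.9), whereas at peaks of all stages the L3 peak was the wider in 57.5% (56.2 to 58.7). Among shared peaks, 46.8% (43.3 to 50.3) of the narrowest 10% in L3 lacked a young adult counterpart, and 2.78% (1.75 to 4.18) of the widest did. Width and fold are linked within a list. The rank correlation of L3 fold and L3 width was 0.28 across members and 0.52 across peaks of all stages.

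Part of these differences was also seen within groups of peaks by L3 fold, although the groups do not make the classes alike in fold. The 7904 shared peaks were cut into 4 equal groups by L3 fold, within which fold was not matched further. The strongest group ran from 4.91 to 21.3, and of the 1307 shared peaks with a fold of at least 6 only 7 were members. In the weakest group, 837 members had a median L3 width of 224 bp (220 to 232) and 1139 peaks of all stages one of 250 bp (243 to 256). In the strongest group, 36 members had a median of 277.5 bp (261 to 327) and 1940 peaks of all stages one of 394 bp (387 to 401). The members were narrower in each of the 4 groups. They also had the lower early embryo rank in each, with medians of 56.6% against 48.4% of the list in the weakest group and 16.0% against 9.76% in the strongest. Which peak of a pair was wider changed more with L3 strength than with class. The early embryo peak was the wider at 65.8% of members and 64.1% of peaks of all stages in the weakest group, and at 27.8% (14.2 to 45.2) and 20.2% (18.4 to 22.0) in the strongest. In the group below the strongest it was the wider at 26.4% (21.2 to 32.1) of members and 35.2% (32.9 to 37.5) of peaks of all stages.

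The rule asked for overlap of the early embryo and L3 peaks, which by itself keeps their summits, where insertions peak, close together, so these distances are a description. The median distance between early embryo and L3 summits was 12 bp at members (11 to 13) and 12 bp at peaks of all stages (12 to 12). At 762 members (45.0%) the summits were at most 10 bp apart, at 1509 (89.2%, 87.6 to 90.6) at most 50 bp, and at 90 (5.32%) over 100 bp. Peaks of all stages had 45.7%, 88.2% and 5.62%. Taken over all L3 folds, members and peaks of all stages did not differ beyond counting error in any of these shares. Within each of the 4 groups by L3 fold, the median distance was smaller at members, with intervals that overlap or touch. It was 15 bp (13 to 16) against 16 bp (15 to 18) in the weakest group. In the next group it was 10.5 bp (10 to 12) against 13 bp (12 to 14). In the strongest it was 6 bp (3 to 12) against 10 bp (9 to 10). At 1557 members (92.0%, 90.6 to 93.3) and at 90.8% (90.1 to 91.5) of peaks of all stages, the overlap covered at least 0.5 of both peaks. The members had 1666 distinct early embryo counterparts, and 63 members overlapped more than 1.

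**Figure D4:**
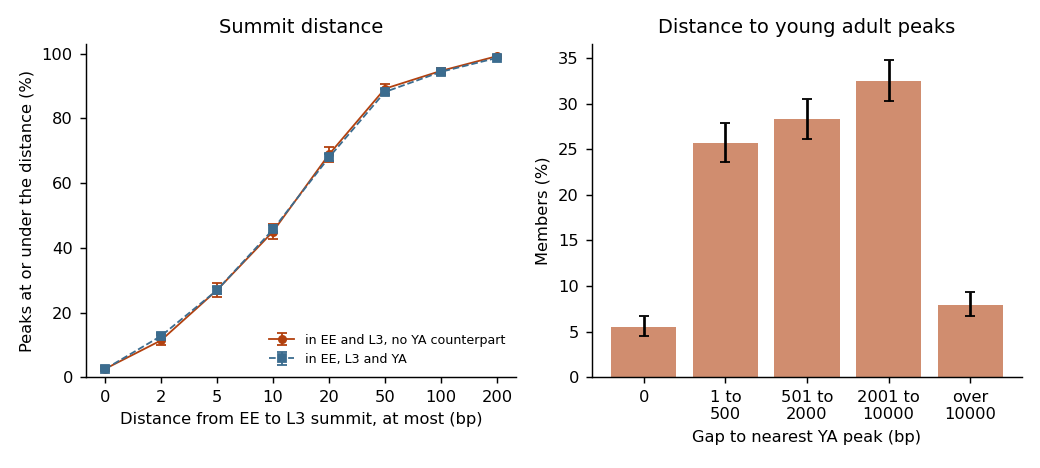
Left, share of regions (percent, with exact 95% intervals) whose early embryo (EE) and L3 summits lay at or within the given distance, for members and for peaks of all stages. The curves lie on each other, with 45.0% and 45.7% at 10 bp. Right, share of the 1692 members by the gap in bp to the nearest young adult (YA) peak, where 0 is overlap or contact.

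The nearest young adult peak was mostly far outside the region. The median gap from a member to a young adult peak was 1303.5 bp (1185 to 1461), from edge to edge, and the highest was 52823 bp. By summit the median distance was 1596.5 bp. Only 92 members (5.44%, 4.41 to 6.63) overlapped a young adult peak at all, with a median of 19.5 bp shared or 8.68% of the L3 peak. Another 435 (25.7%) lay 1 to 500 bp from one, and 1163 (68.7%, 66.5 to 70.9) farther than 500 bp. At 134 members (7.92%) the gap was over 10000 bp. Peaks of all stages had their next young adult peak, other than their own counterpart, at a median of 596.5 bp (548 to 646), and 52.6% had it farther than 500 bp. These gaps are not the same measure, because a member has no young adult counterpart to leave out. Their nearest other L3 peak was also farther, at a median of 943 bp (815 to 1037) against 608.5 bp (542 to 661).

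The nearest young adult peak was a site found in all 3 stages at 56.4% of all members, and more often so where it was close. How common such sites are among all young adult peaks is not given here. Of the 529 members with a young adult peak at 500 bp or less, 345 (65.2%, 61.0 to 69.3) had as nearest a peak with counterparts in both earlier stages, and 41 (7.75%) one with no counterpart in either. For the 1163 members farther away these shares were 52.4% (49.4 to 55.3) and 16.0% (13.9 to 18.2). The authors split broad signal between summits, so that neighbouring peaks can touch. An L3 peak directly adjoined another at 246 members (14.5%, 12.9 to 16.3) and at 27.4% (26.3 to 28.5) of peaks of all stages. At 120 members the adjoining peak, or 1 of them, had a young adult counterpart, and at 120 it was another member. Absence beside a kept neighbour was therefore found at 7.09% of members. At 13 members (0.768%) the early embryo counterpart itself had a young adult counterpart.

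The overlap limits of the rule lay between the following regions. The 3 members with the smallest early embryo overlap shared 0.532 to 0.536 of either peak, and the 3 L3 peaks just outside, without a young adult counterpart as well, 0.478 to 0.498. For the young adult, the 3 members nearest the limit shared 0.447 to 0.494 and the 3 peaks just beyond it 0.504 to 0.509.

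Members were found on every autosome and along the whole of each. Chromosome II held 394, V 349, III 340, I 311 and IV 298. As a share of the peaks with an early embryo counterpart, chromosome II was highest at 24.6% (22.5 to 26.7), followed by III at 22.4% (20.3 to 24.6) and V at 21.4% (19.4 to 23.4). Chromosomes IV and I had 19.4% (17.5 to 21.5) and 19.3% (17.4 to 21.3). Neighbours in this order overlap in their intervals, and the intervals of II do not overlap those of IV and I. In each chromosome the median member had an L3 width of 234 to 242 bp, an L3 rank of 72.0% to 77.2% and a young adult gap of 1252.5 to 1396 bp.

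The autosomes of this worm have gene-dense, rarely recombining centres and repeat-rich arms. In the middle of 3 equal parts of a chromosome lay 593 members (35.0%, 32.8 to 37.4), and 33.7% (32.5 to 34.9) of the peaks of all stages. The share of shared peaks without a young adult counterpart was 20.5% in the left part, 22.1% in the centre and 21.7% in the right, with overlapping intervals. Over 10 equal parts of the chromosome length it stayed between 18.9% (16.4 to 21.7) and 23.5% (20.7 to 26.5). In the centre part alone this share was lowest on I at 17.2% (14.1 to 20.7) and highest on II at 26.3% (22.6 to 30.2). The intervals of I and II do not overlap there, and V had 23.6% (20.3 to 27.2).

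**Figure D5:**
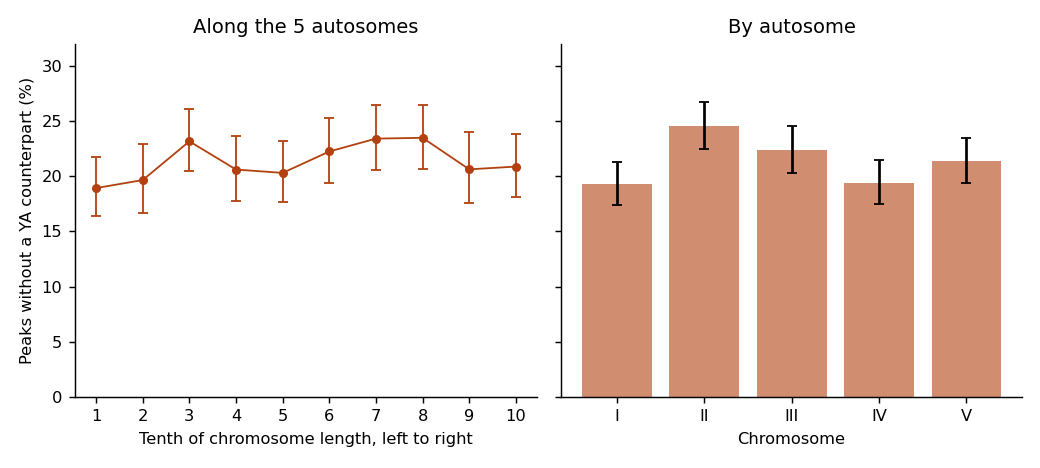
Share of autosomal L3 peaks with an early embryo counterpart that lacked a young adult (YA) counterpart (percent, with exact 95% intervals), in 10 equal parts of chromosome length over the 5 autosomes (left) and by autosome (right). Along the chromosomes the share stayed between 18.9% and 23.5%, and by autosome it was highest on II at 24.6% and lowest on I at 19.3%.

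Cut into 167 blocks of 500 kb, the autosomes held a member in 166, with a median of 10 per block. The most were 30, on chromosome II from 11 to 11.5 Mb, where 39.0% (28.0 to 50.8) of 77 shared peaks lacked a young adult counterpart. The block from 2.5 to 3 Mb on chromosome III had 21, or 39.6% (26.5 to 54) of its 53 shared peaks. There followed chromosome II from 4 to 4.5 Mb with 20 (36.4%), and chromosome III from 9.5 to 10 Mb and from 6 to 6.5 Mb with 20 each (30.3% and 29.0%). Chromosome II from 11.5 to 12 Mb and chromosome I from 14.5 to 15 Mb also had 20, at lower shares of 27.4% and 25.3%. The gei-13 run lies in the block from 9.5 to 10 Mb. Of the 160 blocks with at least 20 shared peaks, those with the highest shares were on chromosome V, with 12 members among 24 shared peaks from 17 to 17.5 Mb and 15 among 36 from 12.5 to 13 Mb. The lowest share in these 160 was on chromosome I from 1 to 1.5 Mb, with 1 member among 29. These blocks were picked for their counts or shares, so the intervals do not allow for that choice.

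Some members came in rows along the DNA. At 697 members (41.2%, 38.8 to 43.6) a neighbouring L3 peak was also a member, and at 27.5% (26.4 to 28.7) of the peaks of all stages a neighbour was. Adjoining peaks, which the splitting of broad signal can make, count as neighbours here. At 120 members the neighbour directly adjoined, and each of the 3 longest runs held such members. Most runs were short, with 995 members standing singly and 215 pairs, and 7 runs had 5 or more. The most compact of the 3 longest lay on chromosome III from 4126079 to 4133943, 6 members within 7.87 kb with no young adult peak. Its L3 folds were 1.73 to 3.56 and its early embryo folds 1.85 to 2.60. On chromosome II, 7 members stood between 11063751 and 11083516, over 19.8 kb without a young adult peak, at L3 folds of 1.83 to 2.56. They lie in the block with the most members. On chromosome IV, 7 members spanned 49.5 kb from 3041343 to 3090813, with 4 young adult peaks in the span and early embryo folds up to 3.37. Of these 7, 5 stood in the last part of the span, from 3088966 to 3090813.

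The strongest member in L3 was a wide peak on chromosome I from 13417118 to 13417827, 710 bp, at a fold of 9.67 and rank 459 of 13040. Its early embryo counterpart was 188 bp wide with a fold enrichment of 1.74, ranked 22424 of 27694, and its summit was 138 bp away. The nearest young adult peak was 5403 bp off. This was the one member among the 10 strongest with so weak an embryo peak, since the others had early embryo folds of 2.55 to 6.62.

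The second strongest lay on chromosome IV from 14838216 to 14838684, with a fold of 8.32 in L3 and 4.59 in the early embryo (ranks 773 of 13040 and 1467 of 27694). It had the lowest sum of both rank percents among all members and stood 11873 bp from any young adult peak. Another of the 10 strongest was 4.55 kb from it, from 14833516 to 14833667, with folds of 6.45 and 3.41. No young adult peak lay between this pair, and 1 further L3 peak did. Of the 10, 5 lay on chromosome IV. On chromosome V the strongest member, from 13880233 to 13880493, had folds of 7.00 and 2.91 and its summit at the same base in both stages. Also on V, the member from 13953140 to 13953413 had folds of 6.23 and 3.76.

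Some of the 10 had a fold in the embryo near that in L3. The member on chromosome IV from 3363861 to 3364087 had folds of 5.98 in L3 and 6.62 in the early embryo. There the embryo peak ranked 360 of 27694 and the summits were 6 bp apart. On chromosome II the region from 14811539 to 14811829 had folds of 6.01 and 5.70 and a summit distance of 5 bp, with a young adult peak 679 bp away. By contrast, the strongest member of chromosome III, from 5678947 to 5679208, had folds of 6.07 and 3.12. A young adult peak lay 318 bp from it, the smallest gap among the 10. Outside the 10, a region at the left end of chromosome II, from 1300 to 1662, was named for its low summed rank percents. It had folds of 5.48 and 4.59 and was 17154 bp from the nearest young adult peak.

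The members farthest from any young adult peak were as follows. The most isolated, on chromosome IV from 16234281 to 16234682, was 52823 bp away, with folds of 1.73 in L3 and 1.58 in the early embryo. The next was on chromosome V from 7365200 to 7365377, at 47791 bp and folds of 2.37 and 2.1. The other 3 of the 5 most isolated were 38646 to 41499 bp away, with L3 folds of 1.90 to 2.52. Apart from the strongest member, the widest in L3 were 753 bp on chromosome IV from 3300017 to 3300769 and 676 bp on chromosome II from 6545641 to 6546316. Their early embryo counterparts were 289 and 341 bp wide, and the summits lay 187 and 228 bp apart.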

How the data were processed

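The 3 stage lists were analysed as deposited, in ce10 coordinates. As the methods, the code supplement and the submitters' processing notes describe it, paired-end reads were aligned with Bowtie2 2.1.0, Picard removed duplicates, and read ends were set to the insertion sites and shifted. The authors ran MACS at a q limit of 0.05, and the deposited stage lists are consensus lists of merged replicates. They split peaks between summits and removed input peaks and blacklisted regions. The methods say that consistency across replicates was favoured, and the code supplement gives the exact rule only for a list of all stages together. Merging removes replicate spread, and splitting raises peak counts. Deposited fold enrichments are ratios to local background. The deposited −log10 q rises with depth and served as a filter, while the deposited −log10 p and display score were not used. Positions and summits in the deposited lists were used as they stand.

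Peaks were ranked by fold within a list. Chromosome ends were taken as the last peak end. Shares have exact (Clopper-Pearson) 95% intervals and medians exact binomial order-statistic intervals. The members, the lists, the comparisons and the named regions were chosen with earlier results of these data known. Regions were named by a rule: the 10 highest in L3 fold, the 5 lowest in summed rank percents, the 5 farthest from young adult peaks, the 3 widest, the strongest per autosome, the 5 fullest blocks, the 3 longest runs, members in the study's listed regions and plot windows, and 3 regions either side of each overlap limit. The blocks with the highest and smallest shares and the gei-13 run were added after their values were seen. Python 3.11.15 with numpy 2.4.6, pandas 2.3.3, scipy 1.17.1 and matplotlib 3.10.9 was used, and the code was tested on simulated lists. No ce10 genome or annotation was used, so peak sequences, motifs and nearest genes are not analysed here. Primer sequences came from the study's primer table, and gene order from RefSeq on WBcel235, whose coordinates were not used. Alternatives were an overlap of 1 bp or of 0.5 in both peaks at once, a −log10 q of at least 2 or 5, equal lists of 13040 peaks, joined neighbours, a stricter absence from the adult list, the stronger 50% of L3 peaks by −log10 q, another choice of embryo counterpart and a wider centre.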

Additional observations from a re-analysis of the deposited data

How the results depend on the processing

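No paired analysis was possible because the deposited lists pool the replicates of each stage and no result comes from a test. The 12 summary values were recomputed under 10 alternatives, and further settings for some of them added 4 values. Of the 124 recomputed values, 75 stayed within the interval of the reported value (for the number of members, within 1.5 times). The number of members moved beyond that to 1018 and 1007 with equal lists of 13040 peaks by −log10 q and by fold, and to 316 with only the stronger 50% of L3 peaks by −log10 q. With equal lists, 908 (by −log10 q) and 895 (by fold) of the 1692 members remained. The share without a young adult counterpart moved from 21.4% to 20.4% with 1 bp of overlap, 25.6% with 0.5 of both peaks, 18.3% and 18.0% with the equal lists, 14.7% when no young adult peak was allowed within 500 bp, and 7.79% in the stronger 50% of L3 peaks. The median young adult gap was 813.5 bp with 0.5 of both peaks and 2527 bp when gaps of 500 bp or less were left out, as follows from those rules. Members had the lower median width and the lower median rank than peaks of all stages, in both earlier stages, under each of the 10 alternatives. In the equal lists the median early embryo rank of members was 56.0% (by −log10 q) and 55.2% (by fold) of the list. Their median L3 rank was 68.6% in both, so the members still ranked better in the early embryo, by less. Peaks of all stages had medians of 34.5% and 34.8% in the early embryo and 31.7% and 31.5% in L3. For them the order of the stages was thus the reverse of that in the full lists.

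Depth differs between the lists, the early embryo being the deepest and L3 the shallowest, and 50.7% of the members were in the weakest 25% of the L3 list. The part of depth in the counts was not tested beyond the equal lists. Without replicate lists, the share of members that another young adult sample would recover cannot be given. Signal outside peaks was not analysed here.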

Other observations

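The same rule applied to chromosome X, which the members leave out, gave 438 of 2051 L3 peaks with an early embryo counterpart and no young adult one (21.4%, 19.6 to 23.2), beside 21.4% (20.5 to 22.3) on the autosomes. Their median L3 width was 248 bp (243 to 255) and their median L3 rank 67.1% of the list (62.9 to 70.2), against 240 bp and 75.3% for the autosomal members. Within the weaker 50% of the L3 list the share without a young adult counterpart was 39.6% (36.3 to 43.0) on X and 35.4% (33.9 to 36.9) on the autosomes. Within the stronger 50% it was 8.74% (7.21 to 10.5) and 7.95% (7.13 to 8.83). The intervals overlap in both comparisons, which does not show that the shares are alike, and the difference was not tested.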
